A study of Homo sapiens with 4 samples.

Results

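The clustered replication-dependent histone genes were taken as every probe set whose single gene symbol in the platform table has the form H2AC, H2BC, H3C or H4C followed by a number, or is H1-1 to H1-6. This gave 61 genes of the 17687 named on the array, each with 1 probe set, of which 17 encode H2B, 14 H2A, 15 H4, 9 H3 and 6 the linker histone H1. RefSeq lists 69 protein-coding genes under these names, and those without a probe set here were not analysed. The cells were 22Rv1, a human line of castration-resistant prostate cancer, kept for 3 days in phenol red-free medium with 2.5% charcoal-stripped serum. Control siRNA (siControl) or siRNA against the octamer-binding transcription factor OCT1 (siOCT1) was transfected 48 h before hormone, and 24 h of vehicle (ethanol) or of 10 nM dihydrotestosterone (DHT), an androgen, followed. Each of the 4 combinations was measured on 1 whole-transcript array of total RNA, so none of the values below could be checked against a replicate, and the labels do not say how many siRNA sequences were used. The level of OCT1 itself was not analysed here, so siOCT1 stands for the transfection as labelled.

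Core histones H2A, H2B, H3 and H4 form the protein spool of the nucleosome, and H1 binds the DNA between nucleosomes. The clustered genes are transcribed mainly in S phase to package new DNA, and most of their mRNAs end in a stem-loop instead of a poly(A) tail. OCT1 is known to bind an octamer element in H2B promoters and to act there with the coactivator OCA-S, NPAT serves the clustered genes as a general coactivator under cyclin E and CDK2, and HINFP acts on H4 genes. Coding sequences of the copies are nearly identical, so probes of different members can share transcripts, and the value of each single gene is uncertain to that extent.

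The promoters are shown first because OCT1 is known for the octamer of H2B promoters; the classes themselves were set by gene symbol. RefSeq promoter windows (GRCh38.p14, from 250 bases before to 50 bases after the annotated start) matched 57 of the 61 genes. They were searched on both strands for the octamer ATTTGCAT, for TATAAA and for CCAAT, none of which contains another. The octamer was found in 14 of 17 H2B genes (82.4%) and in 8 of 13 H2A genes (61.5%), against 598 of 27305 genes in all (2.19%). It was found in 0 of 6 H1, 0 of 8 H3 and 0 of 13 H4 windows. In the H2A genes every match lay on the opposite strand, at -208 to -118 relative to the start. For H2AC1, H2AC6, H2AC8, H2AC11, H2AC14 and H2AC20 it is the octamer of the neighbouring H2B gene, which lies head to head with each. The same bases are thus counted in both classes. In 8 H2B genes it began at -49 to -45 on the gene's strand, in 5 others it began at -123 to -104, and in H2BC17 it lay on the opposite strand at -149. TATAAA was found in 12 of 17 H2B genes and 14.0% of all genes. CCAAT was found in all H1, H2A, H2B and H3 windows but in 3 of 13 H4 windows (23.1%), against 39.7% of all genes.

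The stretches below hold the 60 bases before the annotated start of 8 H2B genes, with octamer, TATAAA and CCAAT matches in capitals, so that those with the octamer can be read against those without it. The first 6 hold the exact octamer, H2BC13 and H2BC26 do not, and H1-5, H3C2 and H4C5 stand for the other classes. H2BC26 has the near match atttgaat in the region where the others hold the octamer.
H2BC14 (chr6:27814962-27815021, plus strand): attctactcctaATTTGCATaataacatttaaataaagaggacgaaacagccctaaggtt
H2BC11 (chr6:27132796-27132855, minus strand): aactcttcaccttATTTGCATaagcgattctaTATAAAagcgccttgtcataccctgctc
H2BC8 (chr6:26216689-26216748, minus strand): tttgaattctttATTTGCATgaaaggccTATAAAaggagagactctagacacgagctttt
H2BC18 (chr1:149812371-149812430, minus strand): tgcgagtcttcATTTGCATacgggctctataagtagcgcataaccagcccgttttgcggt
H2BC12 (chr6:27146859-27146918, minus strand): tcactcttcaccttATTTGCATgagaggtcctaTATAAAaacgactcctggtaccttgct
H2BC21 (chr1:149886683-149886742, minus strand): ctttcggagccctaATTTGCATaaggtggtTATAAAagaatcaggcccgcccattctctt
H2BC13 (chr6:27807930-27807989, minus strand): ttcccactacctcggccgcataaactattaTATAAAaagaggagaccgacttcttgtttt
H2BC26 (chr1:228458043-228458102, plus strand): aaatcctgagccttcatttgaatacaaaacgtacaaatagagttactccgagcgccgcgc
H1-5 (chr6:27867589-27867648, minus strand): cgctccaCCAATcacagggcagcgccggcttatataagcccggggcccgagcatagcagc
H3C2 (chr6:26032100-26032159, minus strand): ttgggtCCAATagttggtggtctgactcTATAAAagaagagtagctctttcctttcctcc
H4C5 (chr6:26204550-26204609, plus strand): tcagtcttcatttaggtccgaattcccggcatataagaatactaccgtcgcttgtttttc

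Of the 12 pairs of a printed H2B gene with the octamer and one without it, H2BC13 and H2BC14 were the most alike upstream, so their 250 bases before the start are given in full with the same letters in capitals. The next most alike pair, H2BC13 and H2BC11, had 65.5% identity there. From 250 to 61 bases before the start, 181 of 191 aligned positions were identical (94.8%). In the last 60 bases, where H2BC14 has the octamer and H2BC13 does not, identity was 37 of 63 (58.7%).
H2BC14 (chr6:27814772-27815021, plus strand): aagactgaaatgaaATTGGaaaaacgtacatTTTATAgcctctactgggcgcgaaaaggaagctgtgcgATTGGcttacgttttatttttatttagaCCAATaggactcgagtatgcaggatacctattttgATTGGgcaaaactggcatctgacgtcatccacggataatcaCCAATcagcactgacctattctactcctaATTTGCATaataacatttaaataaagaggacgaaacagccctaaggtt
H2BC13 (chr6:27807930-27808179, minus strand): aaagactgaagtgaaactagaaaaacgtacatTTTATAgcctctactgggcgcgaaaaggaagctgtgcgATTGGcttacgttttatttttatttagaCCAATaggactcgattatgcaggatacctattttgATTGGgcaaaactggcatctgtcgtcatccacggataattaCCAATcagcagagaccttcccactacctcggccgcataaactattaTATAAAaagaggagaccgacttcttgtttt

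Histone genes had lower signal in siOCT1 cells in both ligand states, in every class. Of the 61 genes, 44 were lower by at least 1.5-fold in vehicle, against 18.8% of 17709 probe sets with a single gene symbol, and 39 were lower in DHT, against 17.6%. None was higher by that amount in vehicle or in DHT, where 19.0% and 16.3% of probe sets were. In both ligand states together 36 were lower (10.7% of probe sets) and 0 higher (7.94%), and 25 were at least 2-fold lower under both ligands (5.17%). Both siOCT1 arrays lay below both siControl arrays for 48 of the 61 genes, against 24.5% of probe sets. An additive limma fit of siRNA and ligand over all probe sets, with Benjamini-Hochberg adjustment, called 27 of the 61 lower (5.95% of probe sets) and 0 higher (3.28%). With 1 array per group, that fit measures error by how far the siRNA difference varies between vehicle and DHT (1 residual degree of freedom), not by the spread between cultures, and "fell" and "rose" below mean a call by it at 0.05. The median difference, siOCT1 minus siControl on the deposited log2 scale, was -1.16 in vehicle and -0.86 in DHT, where all probe sets had 0.04 and 0.02. With every value under the highest array background (7.39) raised to it, the medians of the 61 genes were -0.59 and -0.49.

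**Figure D1:**
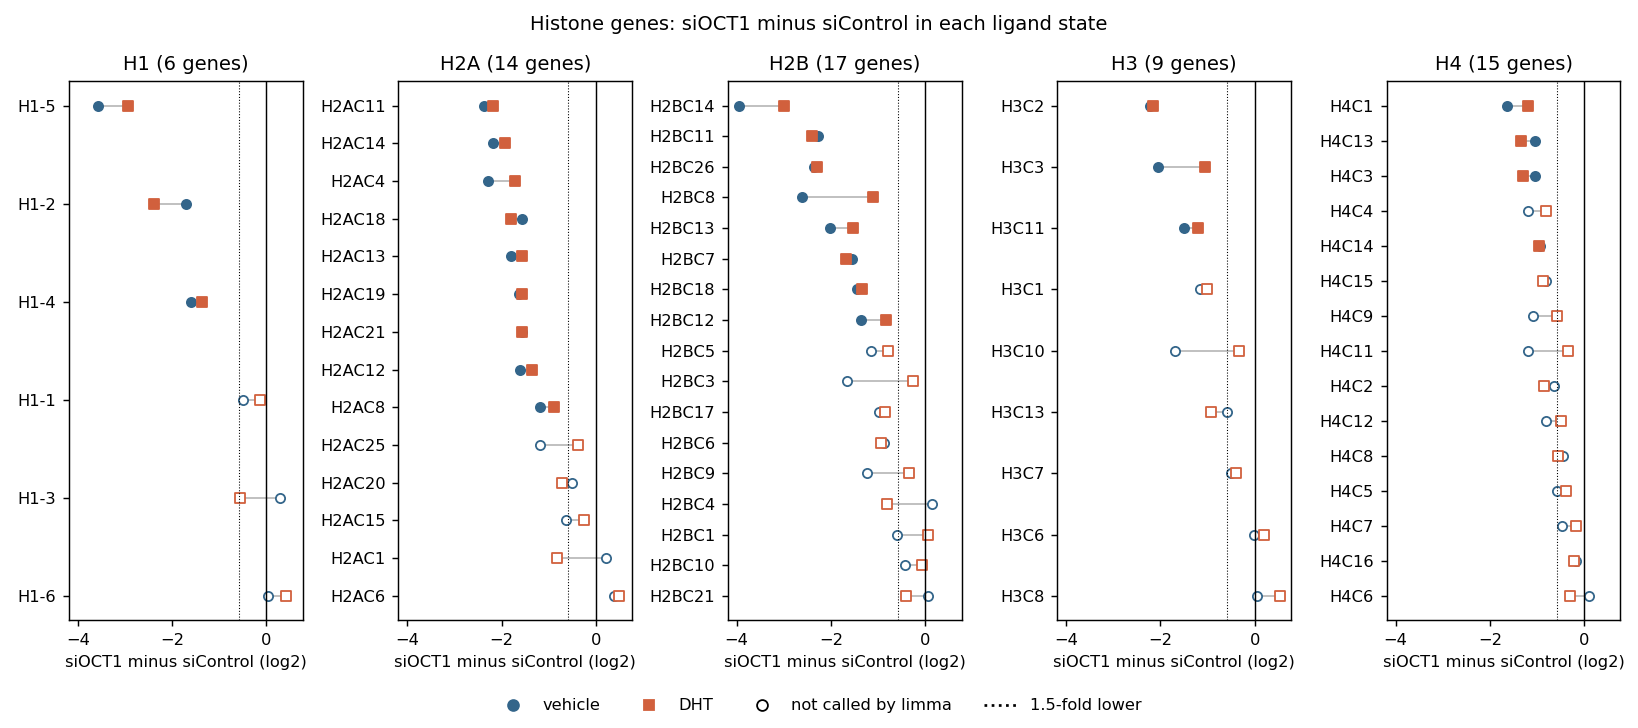
Difference between siOCT1 and siControl (log2, x axis) of each of the 61 histone genes in vehicle (circles) and DHT (squares), 1 array per group, by class; filled symbols are genes that limma called, open symbols those it did not, and the dotted line marks 1.5-fold lower. Called genes lie left of the dotted line in both ligand states, and no gene lies 1.5-fold to the right of 0 in either.

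Background, the 95th percentile of 612 negative control probe sets on each array, lay at 6.62 (siControl, vehicle), 6.99 (siControl, DHT), 7.39 (siOCT1, vehicle) and 6.91 (siOCT1, DHT). Of the 61 genes, 31 lay above it on every array, 18 lay below it on every array, and 38 had a mean over the 4 arrays above the mean background. Among the 7473 probe sets with such a mean, 18.4% passed the 1.5-fold rule downwards under both ligands and limma called 11.7% lower. Of the negative controls themselves, 8.01% were lower by that amount in both ligand states, and 10.6% were higher. Arrays had medians of 5.99 to 6.03. Of the 6 luminal epithelial markers with a probe set, all had a mean above background, among them FOXA1, HOXB13, KRT8 and KRT18. The basal, fibroblast, leukocyte and endothelial markers (11 with a probe set) all had means below it.

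H2B genes, which package DNA as partners of H2A, included the histone gene with the lowest difference. H2BC14 stood at 12.87 and 12.84 in siControl cells (vehicle and DHT) and at 8.91 and 9.83 in siOCT1 cells, on the log2 scale. Both siOCT1 arrays lay far below both siControl arrays. The gene fell, with differences of -3.96 in vehicle and -3.01 in DHT (limma estimate -3.48, standard error 0.29, adjusted p = 0.0027).

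H2BC11 stood at 9.41 and 9.35 in siControl cells and at 7.13 and 6.95 in siOCT1 cells. The siOCT1 value in vehicle lay below background, so the fall there was at least 4.04-fold, and the DHT difference was -2.40. H2BC26, which lies in a small group on chromosome 1 apart from the large clusters, went from 9.81 and 9.41 to 7.46 and 7.11 and fell, with differences of -2.35 and -2.30. Neither gene overlapped between the siRNAs. The siOCT1 values of H2BC26, and that of H2BC11 in DHT, lay only just above background (7.39 in vehicle and 6.91 in DHT). The size of these differences is therefore uncertain.

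H2BC8 had a wider gap between the ligand states. It stood at 10.71 and 9.95 in siControl and at 8.10 and 8.84 in siOCT1 cells, and it fell, with differences of -2.61 and -1.11 and no overlap between the siRNAs. H2BC13 stood at 8.55 and 7.62 in siControl cells and below background in siOCT1 cells, a fall of at least 2.22-fold (vehicle) and 1.63-fold (DHT); its adjusted limma p of 0.0202 became 0.131 with values raised to the highest background and probe sets below it throughout left out. H2BC7 likewise fell from 8.70 and 8.10 to values below background, by at least 2.47-fold and 2.28-fold.

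H2BC18 and H2BC12 were among 5 histone genes that exceeded 16 on an array. H2BC18 went from 16.42 and 16.27 to 14.96 and 14.93, and fell (-1.45 and -1.34). H2BC12 went from 17.07 and 16.94 to 15.71 and 16.10, and fell (-1.36 and -0.84), with an adjusted limma p of 0.0175 that rose to 0.0662 without the intensity trend. On each array 327 to 379 probe sets stood above 16, beyond what a scanner of 16 bits can record, so every fold here is one of the deposited values and not of transcript numbers. With these, 8 of the 17 H2B genes fell.

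The remaining 9 H2B genes were not called. H2BC21, a gene known to give polyadenylated mRNA as well, stood at 11.06 and 11.34 in siControl and at 11.13 and 10.94 in siOCT1 cells, and the groups overlapped. Its differences were 0.06 and -0.41, the smallest mean difference of the class. H2BC5, also known for polyadenylated mRNA, had differences of -1.16 and -0.79 without overlap and an adjusted limma p of 0.0616, which became 0.0399 and 0.0356 with dim probe sets left out of the fit. Polyadenylation was not measured, and whether it goes with the size of the difference was not tested. The genes that fell were not screened for known polyadenylated mRNA, so these mentions do not set called and uncalled genes apart. H2BC17 and H2BC6 lay near background, and all their siOCT1 values lay below it. H2BC6 was lower by at least 1.11-fold in vehicle and 1.38-fold in DHT. H2BC17 was lower by at least 1.01-fold in vehicle, and its values in DHT lay below background under both siRNAs. H2BC1, a testis histone, and H2BC3, H2BC4, H2BC9 and H2BC10 lay below background on all 4 arrays, so no fold is given for them. Over all 17 genes, the 5 below background included, the median difference was -1.36 in vehicle and -0.86 in DHT (-1.15 and -0.41 with values raised).

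**Figure D2:**
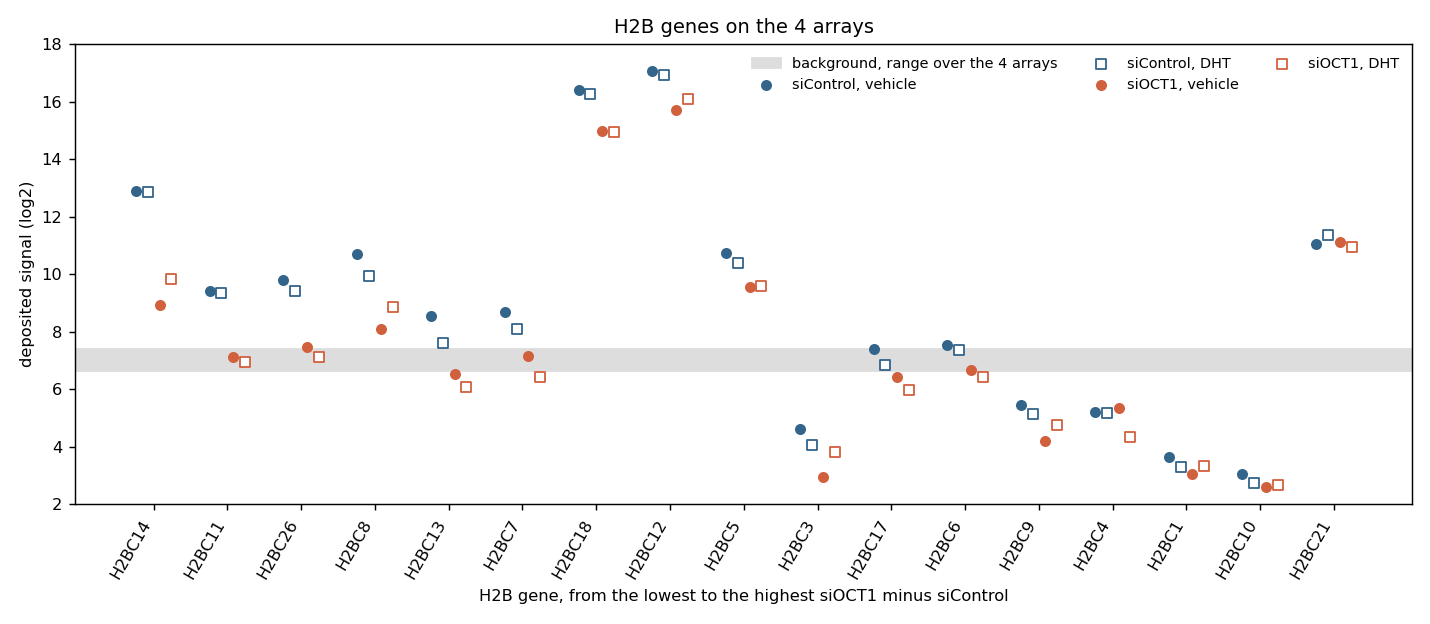
Deposited log2 signal (y axis) of the 17 H2B genes on the 4 arrays, 1 point per array, ordered by mean difference between siOCT1 and siControl, with the range of the 4 background levels in grey; heights of different genes cannot be compared. The orange siOCT1 points lie below the blue siControl points for the called genes, overlap for H2BC21, and 5 genes lie below the grey band throughout.

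Among H2A genes, whose proteins pair with H2B, 9 of 14 fell, and the median difference was -1.56 in vehicle and -1.46 in DHT (-1.33 and -0.85 with values raised). H2AC11 went from 14.79 and 14.19 in siControl to 12.43 and 12.00 in siOCT1 cells and fell (-2.36 and -2.19, limma adjusted p = 0.0029). H2AC14 went from 16.73 and 16.68 to 14.56 and 14.74 and fell (-2.17 and -1.94). H2AC4 stood at 8.87 and 8.20 in siControl cells and below background in siOCT1 cells, a fall of at least 2.78-fold and 2.46-fold. In all 3 genes the siRNA groups did not overlap.

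H2AC18 (-1.56 in vehicle and -1.81 in DHT), H2AC13 (-1.79 and -1.56) and H2AC21 (-1.57 and -1.56) fell too. H2AC8 fell (-1.19 and -0.90), with an adjusted limma p of 0.0381 that was 0.0651 without the intensity trend. The other called genes were H2AC19, a near copy of H2AC18, and the dim H2AC12. H2AC6 was the exception. It is known to give polyadenylated mRNA as well, which was not measured here, and the called genes were not screened for it. It stood at 9.81 and 9.04 in siControl and at 10.19 and 9.53 in siOCT1 cells, with differences of 0.39 and 0.49, and limma did not call it. H2AC20 had differences of -0.50 and -0.71 and H2AC25 had values below background in siOCT1 cells; neither was called.

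Many H2A and H2B genes lie head to head and share the DNA between their starts, so the members of such pairs were set side by side. By RefSeq starts, 8 H2A and H2B pairs faced away from each other within 1000 bases, 215 to 248 bases apart. Only the 57 genes with a promoter window could be paired, so H2AC12, which had none, was left out. H2AC11 and H2BC11 had mean differences of -2.27 and -2.34, and H2AC13 and H2BC13 of -1.68 and -1.78, and all 4 genes fell. H2BC13 lay below background on both siOCT1 arrays and H2BC11 on the one in vehicle, so these values do not show how closely the partners match. H2AC14 and H2BC14 both fell, but by unequal amounts, -2.05 and -3.48 on average, and so did H2AC8 and H2BC8, at -1.04 and -1.86. In the pair H2AC25 and H2BC26 the means were -0.78 and -2.33, and limma called H2BC26 alone; the siOCT1 values of H2AC25 lay below background, so its difference is known as a bound only. Neither gene was called in H2AC20 and H2BC21 (-0.61 and -0.17), H2AC6 and H2BC4 (0.44 and -0.34) and the testis pair H2AC1 and H2BC1 (-0.31 and -0.27), of which H2BC4, H2AC1 and H2BC1 lay below background throughout. In 4 of the 8 pairs both genes fell, in 3 neither was called, and in 1 the call was split.

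**Figure D3:**
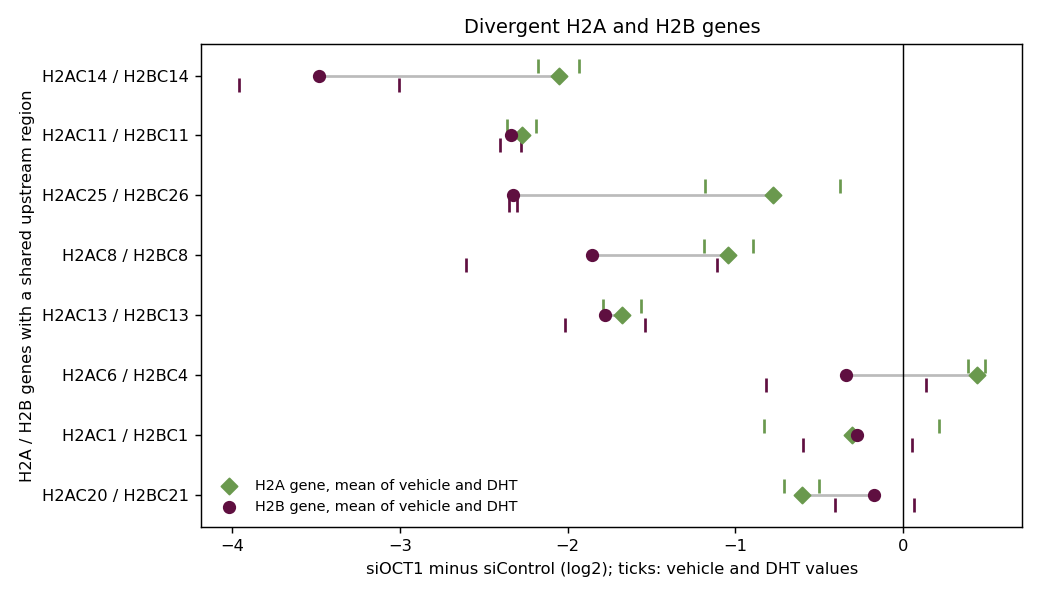
Difference between siOCT1 and siControl (log2, x axis) of 8 head-to-head H2A (green diamonds) and H2B (purple circles) pairs; large symbols are the mean of vehicle and DHT and ticks the value of each ligand state, 1 array per group. H2AC14 and H2BC14 lie at means of -2.05 and -3.48, and H2BC11 (vehicle), H2BC13 and H2AC25 rest on siOCT1 values below background.

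Linker histone genes split into 3 that fell and 3 that were never above background. H1-5 went from 14.84 and 14.78 in siControl to 11.27 and 11.85 in siOCT1 cells and fell (-3.57 and -2.93, limma adjusted p = 0.0019), the second lowest mean difference of the 61 genes. H1-2 went from 10.56 and 10.47 to 8.85 and 8.08 and fell (-1.71 and -2.38). H1-4 went from 15.42 and 15.28 to 13.82 and 13.91 and fell (-1.60 and -1.37). In each, both siOCT1 arrays lay below both siControl arrays. H1-1, H1-3 and the testis gene H1-6 lay below background on all 4 arrays.

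Among H3 genes, 3 of 9 fell. H3C2 went from 12.80 and 12.47 to 10.58 and 10.31 and fell (-2.22 and -2.17), and H3C11 from 12.21 and 11.93 to 10.70 and 10.73, and fell (-1.51 and -1.20). The third, H3C3, was called although it lay below background on all 4 arrays, so no fold is given. H3C1 had differences of -1.16 and -1.02 (limma adjusted p = 0.0549, and 0.0333 and 0.0271 with dim probe sets left out) and H3C13 of -0.59 and -0.93, neither called. Over the 9 genes, 4 of them below background throughout, the median difference was -1.16 in vehicle and -0.93 in DHT, and -0.15 and 0 with values raised.

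Among H4 genes 4 of 15 fell, and the median difference was -0.82 in vehicle and -0.59 in DHT (-0.57 and -0.39 with values raised). This was the class median closest to 0 on the deposited values, but not with values raised to the highest background, where the medians over both ligand states were -0.51 for H4 and -0.08 for H3. H4C1 went from 8.50 and 8.14 to 6.88 and 6.95, a fall of at least 2.16-fold in vehicle, with a DHT difference of -1.19. H4C3 went from 16.24 and 15.62 to 15.18 and 14.31 and fell (-1.05 and -1.31). H4C14 went from 13.16 and 12.57 to 12.22 and 11.60 and fell (-0.93 and -0.97), with an adjusted limma p of 0.0365 that was 0.0753 without the intensity trend. H4C13 was the other called gene and lay below background throughout. H4C4 (-1.19 and -0.82) and H4C15 (-0.81 and -0.88) missed the limma threshold, with adjusted p of 0.057 and 0.0552 over all probe sets, and were called with dim probe sets left out, while H4C11 (-1.18 and -0.34), H4C12 (-0.82 and -0.49), H4C8 (-0.45 and -0.56) and H4C5 (-0.57 and -0.39) showed differences that limma did not call. H4C5 went from 16.65 and 16.34 to 16.08 and 15.95 without overlap. The order of the H4 and H2B medians in vehicle held with arrays centred on positive controls (-0.61 for H4, -1.15 for H2B) and in DHT (-0.58 and -0.86), and no test was made between classes.

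H2B was thus set beside the 44 other histone genes: 11 of 17 H2B genes (64.7%) and 25 of 44 others (56.8%) passed the 1.5-fold rule downwards under both ligands, and limma called 8 (47.1%) and 19 (43.2%). Medians over both ligand states were -0.98 for H2B and -0.90 for the others. By class they were -1.53 for H2A, -1.02 for H3, -0.90 for H1 and -0.76 for H4. These lists hold genes below background on all 4 arrays, 5 of the H2B genes and 13 of the others. Among genes with a mean above background, medians were -1.61 for 11 H2B genes and -1.18 for 27 others. There they were -1.59 for H2A, -1.22 for H3, -2.05 for H1 and -0.84 for H4. The H2B median there is the value of H2BC7, whose siOCT1 values both lay below background, so its size is uncertain. With values raised to the highest background, medians over all genes were -0.69 for the 17 H2B genes and -0.63 for the 44 others. These are counts and medians of lists; whether H2B differed from the other classes was not tested.

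H2B genes with and without the octamer letters were set side by side. The order of their medians turned with the window, but medians in both windows rest on signal below background. The 14 with the octamer anywhere in the window had a median of -0.94, ranging from -3.48 to -0.17, and 6 fell, with 5 of the 14 below background on all arrays. That median lies between the values of H2BC3, below background on all 4 arrays, and H2BC17, below it on 3. The 3 without it, H2BC13, H2BC26 and H2BC5, had a median of -1.78, and 2 of them fell. That median is the value of H2BC13 and rests on siOCT1 signal below background. Only exact letters were searched, and H2BC26 has the near match atttgaat close to its start. With the octamer counted only near the start, the median was -1.25 for the 8 genes with it and -0.96 for the 9 without it. The median of the 9 is the value of H2BC3, so it is not a measured size. Of the 8 genes with the octamer at -49 to -45, 5 fell (H2BC14, H2BC11, H2BC8, H2BC18 and H2BC12), H2BC21 did not, and H2BC9 and H2BC10 lay below background. Among H2A genes the medians were -1.30 with the octamer (8 genes, 5 fell) and -1.59 without it (5 genes, 3 fell). Most of those H2A matches are the octamer of the head-to-head H2B gene, so the H2A and H2B contrasts are not independent. The pair H2BC13 and H2BC14, with nearly the same upstream sequence, had mean differences of -1.78 and -3.48, and the siOCT1 values of H2BC13 lay below background. H1-5 and H3C2, with no octamer in the window, had means of -3.25 and -2.19. A match is a run of letters in an annotated window, and no binding was measured.

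**Figure D4:**
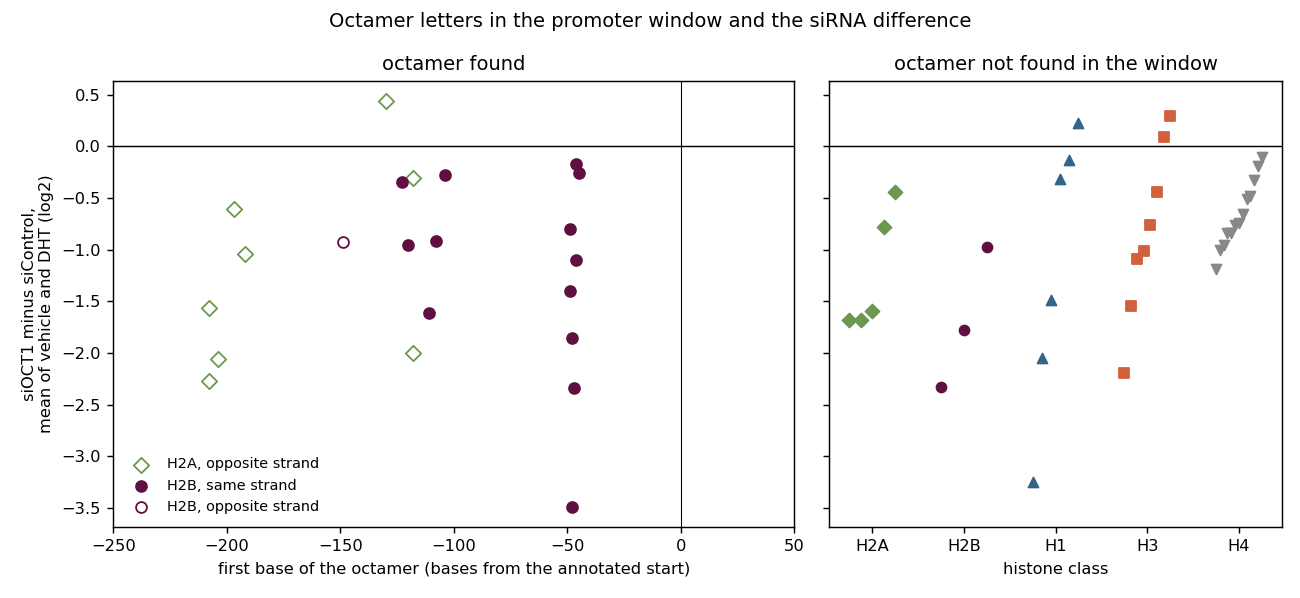
Left, position of the octamer relative to the annotated start (bases, x axis) against the mean difference between siOCT1 and siControl over both ligand states (log2, y axis), filled on the gene's strand and open on the opposite strand; right, genes of each class whose window holds no octamer. H2B genes with the octamer at -49 to -45 range from -3.48 to -0.17.

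By position, the 61 genes fell into 6 groups when gaps over 500000 bases were taken as borders in the RefSeq order. The largest, 32 genes on chromosome 6 from H2AC1 to H4C8, had a median of -0.77 over both ligand states, and 10 fell. In it 16 of the 32 genes had a mean above background. The next groups on chromosome 6, with 5 genes from H2BC11 to H2AC12 and 12 genes from H2BC13 to H2BC17, had medians of -1.49 and -1.27, and 4 and 7 fell. On chromosome 1, 5 of 9 genes from H2BC18 to H2AC21 fell, with a median of -0.95, and H2AC25 with H2BC26 formed a group of 2. H4C16, alone on chromosome 12, lay below background. Genes that fell were therefore found in every group with signal above background.

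DHT differences of the histone genes were smaller than the siRNA differences, and mostly below 0 in siControl cells. There 50 of the 61 genes were lower with DHT by any amount, against 9204 of 17709 probe sets. In siOCT1 cells 37 were, against 8923. In siControl cells 12 genes were lower by at least 1.5-fold with DHT, against 10.5% of probe sets, and 1 was higher (11.4%), the dim H1-3. In siOCT1 cells 9 were lower (12.0%) and 5 higher (12.1%), and 4 were lower under both siRNAs (3.09%). The additive limma fit called 0 of 61 genes after Benjamini-Hochberg adjustment, as 0.0791% of probe sets fell and 0.243% rose, and 5 genes had an unadjusted p under 0.05. The lowest adjusted p was 0.233, for H4C3, with DHT differences of -0.62 in siControl and -0.87 in siOCT1 cells. The differences were -0.59 and -0.62 for H4C14 and -0.76 and -0.66 for H2AC6. H2BC7 had a difference of -0.60 in siControl cells, but both of its siOCT1 values lay below background, so the rule's count of it under siOCT1 compares values not above background. H2AC11 and H4C15 were the other genes under that unadjusted p. The median difference between DHT and vehicle was -0.31 in siControl and -0.13 in siOCT1 cells over the 61 genes, and -0.32 and -0.03 over the 17 H2B genes. Centring on positive controls raised the median of all probe sets by 0.15 in siControl and the H2B median there to -0.17.

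Of the H2B genes with a mean above background, H2BC14 and H2BC8 were those at least 1.5-fold higher with DHT in siOCT1 cells. The DHT difference of H2BC14 was 0.92 in siOCT1 cells and -0.03 in siControl cells, and that of H2BC8 was 0.74 and -0.76. Each is a single value per gene, and the difference between the responses was not tested. The siRNA comparisons in vehicle and in DHT share no array, while the DHT differences are built from the same 4 arrays as the siRNA differences.

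The genes that make, process and deliver histones were read from lists on the same arrays. Beside the counts of all these lists, limma called 5.95% of the 17709 probe sets lower and 3.28% higher. Of the 7473 with a mean above background it called 11.7% lower. Among 12 genes of histone gene transcription with a probe set, 4 fell and 1 rose. The chromatin ATPase ATAD2 went from 10.63 and 12.74 to 7.91 and 9.88 and fell (-2.72 and -2.86, limma adjusted p = 0.00285). It was also the gene of these lists that rose with DHT, with differences of 2.11 and 1.97 (limma adjusted p = 0.0399). CDK2 (-1.65 and -1.42) and the cyclin gene CCNE2 (-1.24 and -1.14) fell. E2F1, named after its values were seen as the other call, lay below background on 3 arrays. HINFP, the activator of H4 genes, rose (1.09 and 1.18), from 9.74 and 9.55 to 10.83 and 10.72. NPAT, also named after its values were seen, stood at 8.15 and 8.97 in siControl and at 8.67 and 8.89 in siOCT1 cells and was not called, and the groups overlapped.

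Of 15 genes of histone mRNA end processing and turnover, 3 fell and 0 rose. SLBP, which binds the stem-loop of histone mRNA, went from 10.12 and 9.85 to 7.75 and 7.99 and fell (-2.36 and -1.86, limma adjusted p = 0.00843). CPSF2, a subunit of the cleavage complex, fell (-1.27 and -1.12). The exonuclease ERI1, the other call and named after its values were seen, lay below background on both siOCT1 arrays. ZNF473, a factor of histone pre-mRNA processing, had differences of 0.27 and 1.24 and the Sm protein gene SNRPB of -0.72 and -1.33 without a call, although SNRPB was called with dim probe sets left out.

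Histone chaperones, which hand new histones to DNA, fell in 9 of 17 cases and rose in 0. CHAF1B, a subunit of the assembly factor CAF-1, fell at least 8.35-fold in vehicle and had a DHT difference of -2.66. ASF1B, which carries H3 with H4, fell at least 3.90-fold and 6.25-fold, and the histone-binding protein gene RBBP4 fell (-2.27 and -1.98). MCM2, a helicase subunit that also binds histones, fell at least 3.15-fold in vehicle and had a DHT difference of -1.71.

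Histone genes outside the clusters were read as a further list, in which 4 of 13 fell and 0 rose. How far each of them depends on the cell cycle was not examined. H2AX, whose protein is phosphorylated at DNA breaks, went from 12.39 and 12.42 to 9.79 and 9.80 and fell (-2.60 and -2.61). H2AZ2 (-1.74 and -1.17) and H3-3B, a gene of the replacement histone H3 (-1.25 and -1.41), fell. CENPA, the centromere histone and the other call, lay below background throughout, and H3-5 was lower by at least 3.13-fold (vehicle), with a DHT difference of -0.83 and no call; limma called it with dim probe sets left out or with arrays centred on positive controls. The median of this list was -0.42 over both ligand states.

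OCT1 relatives and OCA-S members had 8 genes with a probe set, of which 3 fell and 0 rose. NME1, NME2 and HSPA8 had no probe set with a single gene symbol. LDHA (-2.24 and -1.66), STIP1 (-1.45 in vehicle) and LDHB (-1.16 and -0.55) fell, the last with an adjusted limma p of 0.0417 that became 0.122 without the intensity trend. UNG was lower by at least 2.13-fold (vehicle), with a DHT difference of 0.14 and no call. POU2F2, POU2F3 and POU2AF1 lay below background on all 4 arrays. S phase genes fell in 14 of 14 cases, of which 12 had a mean above background, and their median over vehicle and DHT was -2.64. The nucleotide synthesis genes RRM2 (-4.16 and -3.34) and TYMS (-4.01 and -3.28) fell. The flap nuclease gene FEN1 fell at least 13.0-fold in vehicle, with a DHT difference of -3.49, and the replication licensing gene CDC6 at least 9.15-fold, with -3.41. In bulk RNA, fewer cells in S phase and less histone mRNA per cell in S phase cannot be told apart, and the part of these S phase genes in the histone differences was not tested.

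**Figure D5:**
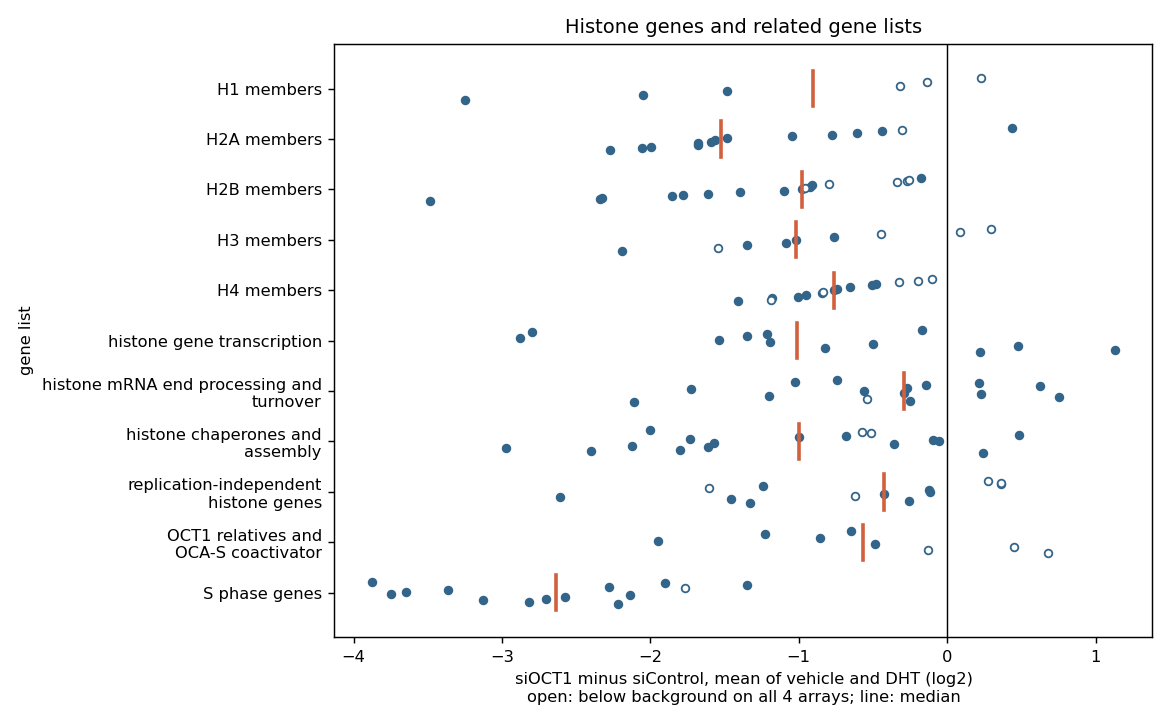
Difference between siOCT1 and siControl averaged over vehicle and DHT (log2, x axis) for the genes of each histone class and of 6 related lists; each point is a gene, open points lie below background on all 4 arrays, and orange lines are medians. S phase genes have a median of -2.64, below the medians of all 5 histone classes.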

How the data were processed

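Per the labels' protocols, total RNA of 22Rv1 cells was labelled by the WT Terminal Labeling kit, 1 array for each of 4 groups. Deposited values are log2 signals; the submitters' processing notes name Expression Console and RMA, and neither version nor genome build is named in the sources used here. RMA forces the arrays to a common distribution, so a change of total RNA cannot be seen. All 17709 probe sets with 1 gene symbol were fitted without a filter on level with limma 3.58.1 in R 4.3.3 (siRNA plus ligand, trended eBayes, prior of 5.93 degrees of freedom beside 1 residual degree). "At least N-fold" sets the brighter value over the dimmer array's background. Named genes were every H2B gene, up to 5 highest and 5 lowest per other class with a mean above background, and up to 4 per list by size of difference; genes outside this rule are marked as such or belong to a pair, a promoter contrast or a count. Members, lists and tests were chosen with earlier results of these data known. Python 3.11.15 with pandas 2.3.3 did the rest, and the fit was tested on simulated data.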

Additional observations from a re-analysis of the deposited data

Results flagged for a closer look

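H2BC8 moved in opposite directions with DHT under the 2 siRNAs, each by at least 1.5-fold: DHT minus vehicle was -0.76 in siControl cells and 0.74 in siOCT1 cells. Each value rests on 1 array against 1 array, and the difference was not tested.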

How the results depend on the processing

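The H2B median of -0.98 became -1.50 over the 12 genes kept by either filter on dim probe sets, and that of the other classes, -0.90, became -1.09 over 31 genes under either filter and -0.63 once all values under the highest array background (7.39) were set to it. With a 2-fold rule 7 H2B genes in place of 11 were lower in both ligand states. With values raised, limma called 0 H2B and 0 other members (3 and 16 at an unadjusted p under 0.05) and 0 of all probe sets, because 9969 of 17709 probe sets then hold 1 constant value; with those left out, an alternative chosen after seeing the data, it called 7 and 18. Of the 27 members that fell, 25 were called again under either filter, 27 with arrays centred on positive controls or robust moderation, 24 without trend and 23 in that added fit. Centring moved the median of all siRNA differences by 0.21 in vehicle. The DHT call stayed at 0 under every setting run. No paired analysis was possible because each group held 1 array and the labels give no replicate numbers to pair; the fit compares siRNAs within each ligand. Limits: 1 array per group, near-identical gene copies and signal below background on all 4 arrays for 18 genes, with 31 of 61 above it on every array.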
